A study of Homo sapiens with 4 samples.

Results

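The 6 genes described here encode proteins of human DNA mismatch repair, namely the MutS homologs MSH3 and MSH6, the MutL homologs MLH3, PMS1 and PMS2, and the exonuclease EXO1. They were taken by gene symbol from an expression table of 58735 genes, and all 6 had a row and passed the filter of a mean FPKM of at least 1, which kept 14429 genes. The table held 4 RNA-seq libraries of the colorectal cancer cell lines HCT116 and LOVO, both with the wild-type (WT) label. There was 1 library of adherent HCT116 cells and 1 of adherent LOVO cells, both untreated. There was also 1 library of HCT116 spheroids and 1 of LOVO spheroids, which the labels give as treated at 1 mg/ml without an agent, whereas the methods of the study name oxaliplatin, a platinum drug, at 1 μg/ml. Spheroids grew in serum-free medium with growth factors and adherent cells in medium with serum, so that growth form, medium and drug cannot be told apart. FPKM divides a gene's fragments, called reads below, by its length in kilobases and by a size set for the library. Values given in sets of 4 stand in the order of the HCT116 pair and then the LOVO pair, the adherent library first in each.

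Mismatch repair removes bases that were wrongly paired during DNA replication and small loops in repeated sequence. MutS dimers recognise the fault, MSH6-containing dimers mainly mispairs and short loops, MSH3-containing dimers mainly longer loops. MutL dimers are then recruited, those with PMS2 being the main form in replication repair, and the new strand is cut back by EXO1 and filled in again. Cells without this system accumulate changes in microsatellites, and colorectal tumours with such a defect form a clinical class of their own. Both lines are known as mismatch repair deficient, HCT116 through loss of MutL function with a further defect in MSH3, and LOVO through loss of MutS function. The partner proteins of a lost subunit are known to be unstable, which is a matter of protein and is not measured by RNA-seq.

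The depth was 15483569 to 20429147 reads on genes per library, and every value above 0 came back as a whole number of reads. The library size behind the FPKM was 0.998, 1.09, 0.907 and 1.05 times the reads on genes. How this size was set is not given in the sources used here, and small differences between libraries depend on it. Intervals below are 95% exact intervals of counting error. They compare libraries and not conditions, since variation between cultures was not measured. The labelled cell type was checked on 8 markers of colorectal epithelium, whose summed FPKM was 1754 and 1288 in adherent HCT116 cells and HCT116 spheroids and 327 and 187 in the corresponding LOVO libraries. In the libraries labelled LOVO, CDX2 and VIL1 were listed at 0, CDH1 was at 0.117 and 0.00805 and EPCAM at 0.930 and 1.50, against 31.1 and 31.1 for CDH1 and 85.6 and 79.3 for EPCAM in HCT116. KRT8 was at 189 and 81.6 in them, against 571 and 418 in HCT116. KRT19 was at 14.9 and 4.85 against 808 and 543, and KRT20 at 0.0302 and 0.0538 against 0.930 and 7.45. Of 8 markers of blood, fibroblasts and endothelium, the summed FPKM was 5.77 and 16.3 in HCT116 and 20.4 and 22.7 in LOVO, where DCN, a fibroblast proteoglycan, reached 10.4 and 9.97 against 0 in both HCT116 libraries. Within LOVO, PECAM1, an endothelial adhesion protein, was at 0.0359 in adherent and 6.35 in spheroid cells, and the collagen gene COL1A1 at 9.89 and 6.10, and within HCT116 COL1A1 was at 5.51 and 15.5. The part of these markers in the results below was not tested. "LOVO" therefore stands below for the label, and the identity of these cells was not tested.

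Sequences at the gene starts are shown for the members that held a match to the motifs given below. A comparison with cell cycle genes is described below only for EXO1. They are RefSeq windows of 250 bases before to 50 bases after a transcription start (GRCh38.p14), and windows were found for all 6 genes. Capitals mark matches, on either strand, to TTTCCCGC, TTTCGCGC, TTTGCCGC or TTTGGCGC, forms of the site bound by E2F factors, or to TGACGTCA, the cyclic AMP response element. The EXO1 window lies on the plus strand at chr1:241847954-241848253, and that of MSH3 on the plus strand at chr5:80654402-80654701. The stretch of MSH6 is on the plus strand at chr2:47783108-47783194, and that of PMS2 on the minus strand at chr7:6009102-6009250. The MSH6 window starts inside the wider span that the table gives for this gene.
EXO1: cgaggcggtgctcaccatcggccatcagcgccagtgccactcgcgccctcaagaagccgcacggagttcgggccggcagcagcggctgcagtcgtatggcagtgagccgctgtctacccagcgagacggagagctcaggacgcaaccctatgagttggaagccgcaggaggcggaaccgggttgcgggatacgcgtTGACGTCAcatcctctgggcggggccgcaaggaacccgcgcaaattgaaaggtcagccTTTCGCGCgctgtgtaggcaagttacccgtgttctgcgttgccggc
MSH3: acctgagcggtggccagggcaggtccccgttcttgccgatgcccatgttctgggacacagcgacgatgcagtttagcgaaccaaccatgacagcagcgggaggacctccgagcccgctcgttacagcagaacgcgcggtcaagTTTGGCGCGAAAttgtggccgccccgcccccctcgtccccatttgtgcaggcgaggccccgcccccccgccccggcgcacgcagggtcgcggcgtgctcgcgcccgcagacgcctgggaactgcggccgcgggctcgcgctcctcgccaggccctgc
MSH6: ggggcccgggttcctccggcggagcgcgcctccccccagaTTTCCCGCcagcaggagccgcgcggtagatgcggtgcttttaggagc
PMS2: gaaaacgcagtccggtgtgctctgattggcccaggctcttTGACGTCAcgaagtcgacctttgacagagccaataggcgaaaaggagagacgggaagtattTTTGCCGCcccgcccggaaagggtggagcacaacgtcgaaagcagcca

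In the first window of each gene, 4 of the 6 members held an E2F-type match and 2 held the cyclic AMP element. Over all 27305 first windows in the RefSeq table, 3.33% held an E2F-type match and 1.98% the cyclic AMP element. EXO1 had its E2F-type match from base 5 after the start and the cyclic AMP element from base -54. The capitals in MSH3 are an overlapping pair, TTTGGCGC from base -107 on the given strand and TTTCGCGC from base -103 on the other. In MSH6 the match began at base 4, and in PMS2 the matches began at base -43 (E2F type) and -104. The first windows of MLH3 and PMS1 held none of these letters. A match describes the letters and does not show that a factor was bound in these cells.

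The MutS homologs differed between the lines more than between growth forms. MSH3, at chr5:80654648-80876460 on the plus strand, had an FPKM of 0.615 in adherent and 0.784 in spheroid HCT116 cells, and of 5.03 in adherent and 2.41 in spheroid LOVO cells, from 59, 62, 425 and 228 reads. Both HCT116 libraries lay below both LOVO libraries, and MSH3 was the lowest of the 6 genes in all 4 libraries, in adherent LOVO cells level with MLH3. The LOVO to HCT116 ratio was 8.19 in adherent cells (log2 ratio 3.03, interval 2.64 to 3.45) and 3.07 in spheroids (log2 ratio 1.62, interval 1.21 to 2.05). Between spheroids and adherent cells the log2 ratio was 0.35 in HCT116, with an interval from -0.19 to 0.89, so that the depth did not resolve a difference. In LOVO it was -1.06 (interval -1.30 to -0.83), a level 2.09 times lower in the spheroid library.

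MSH6, at chr2:47695530-47810101 on the plus strand, had an FPKM of 5.73 in adherent and 4.81 in spheroid HCT116 cells, and of 18.6 in adherent and 15.5 in spheroid LOVO cells. The LOVO libraries were 3.25 times (adherent) and 3.22 times (spheroids) the HCT116 libraries, so that this difference was of like size in each growth form. Spheroids were slightly lower than adherent cells in each line, with log2 ratios of -0.25 (interval -0.38 to -0.13) in HCT116 and -0.27 (interval -0.33 to -0.20) in LOVO. The LOVO difference depended on the scaling, at -0.25 on the log2(FPKM + 1) scale against -0.06 with TPM and -0.12 with a TMM-style scaling. Of the 10993 exonic bases of MSH6, 1785 are also exonic in FBXO11, an F-box gene on the other strand, and no source used here states that reads were counted by strand. FBXO11 was at 6.74, 7.55, 7.67 and 5.40 in the same order, without the difference between lines seen for MSH6.

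The balance of the MutS partners therefore differed among the libraries. Per length, MSH6 was 9.32 times MSH3 in adherent HCT116 cells (interval 7.17 to 12.3) and 3.70 times in adherent LOVO cells (interval 3.35 to 4.10). In spheroids the ratio was 6.14 in HCT116 (interval 4.74 to 8.07) and 6.43 in LOVO (interval 5.63 to 7.39), and these intervals overlap. The exonic length that divides the MSH6 reads is 1.47 times its longest principal transcript, against 1.15 times for MSH3, so that the ratio is that of the table and not of molecules.

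Among the MutL homologs, PMS2 was higher in adherent LOVO cells than in the other 3 libraries. PMS2, the endonuclease subunit of the main MutL dimer, lies at chr7:5973239-6009125 on the minus strand and had an FPKM of 7.48 in adherent and 6.05 in spheroid HCT116 cells, and of 13.8 in adherent and 6.79 in spheroid LOVO cells. Spheroids were lower in each line, with a log2 ratio of -0.31 (interval -0.49 to -0.12) in HCT116 and of -1.03 (interval -1.18 to -0.87) in LOVO. The lines differed by a log2 ratio of 0.89 (interval 0.74 to 1.04) as adherent cells. As spheroids the log2 ratio was 0.17 (interval -0.02 to 0.36), and the depth did not resolve a difference.

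PMS2 values are uncertain because copies of the gene exist nearby and elsewhere. Of the distinct stretches of 50 bases in PMS2 transcripts, 23.0% also occurred in transcripts of other genes, mostly in the pseudogene PMS2CL. The 11 copies named PMS2CL or PMS2P with a number held 865 and 595 reads in adherent HCT116 cells and HCT116 spheroids and 802 and 825 in the LOVO libraries, against 600, 400, 976 and 538 for PMS2. The FPKM of PMS2CL was 5.27, 4.60, 5.22 and 4.07, and that of PMS2P1, the copy with the highest level in each library, was 7.79, 5.48, 8.85 and 7.29. In both copies the adherent LOVO library stood less far above the spheroid LOVO library than in PMS2. How reads common to PMS2 and its copies were assigned is not given in the sources used here. AIMP2, a scaffold protein of the aminoacyl-tRNA synthetase complex, begins 119 bases from PMS2 and runs the other way. Its FPKM was 13.2, 9.16, 25.8 and 10.5, with the highest value in adherent LOVO cells, as for PMS2.

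PMS1 was the most even member. This MutL homolog, whose part in repair is minor, lies at chr2:189784085-189877629 on the plus strand and had an FPKM of 5.96, 6.19, 6.74 and 5.25 in the 4 libraries. Its log2(FPKM + 1) spanned 0.31 over the 4 libraries, against 1.07 to 4.77 for the other members. Its spheroid to adherent log2 ratio was 0.05 in HCT116, with an interval from -0.11 to 0.22 that includes 0, and -0.36 in LOVO (interval -0.52 to -0.20). LOVO and HCT116 differed by 0.18 (interval 0.02 to 0.33) as adherent cells and by -0.24 (interval -0.41 to -0.07) as spheroids, in opposite directions. With FPKM rescaled to TPM, the difference between the spheroid libraries on the log2 scale with a pseudocount of 1 was -0.0036 in place of -0.20.

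MLH3, a MutL homolog best known for its role in meiotic crossing over, lies at chr14:75013764-75051532 on the minus strand. Its FPKM was 1.61, 2.52, 5.03 and 3.83 in the same order, and both LOVO libraries were above both HCT116 libraries. MLH3 was higher in HCT116 spheroids than in adherent HCT116 cells, with a log2 ratio of 0.65 (interval 0.42 to 0.88), while in LOVO the ratio was -0.39 (interval -0.55 to -0.24). The difference between the lines was 1.65 (interval 1.45 to 1.85) as adherent cells and 0.61 (interval 0.42 to 0.80) as spheroids. Per length, PMS2 was 4.65 times MLH3 in adherent HCT116 cells and 2.40 times in HCT116 spheroids, and 2.75 and 1.77 times in adherent LOVO cells and LOVO spheroids.

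**Figure D1:**
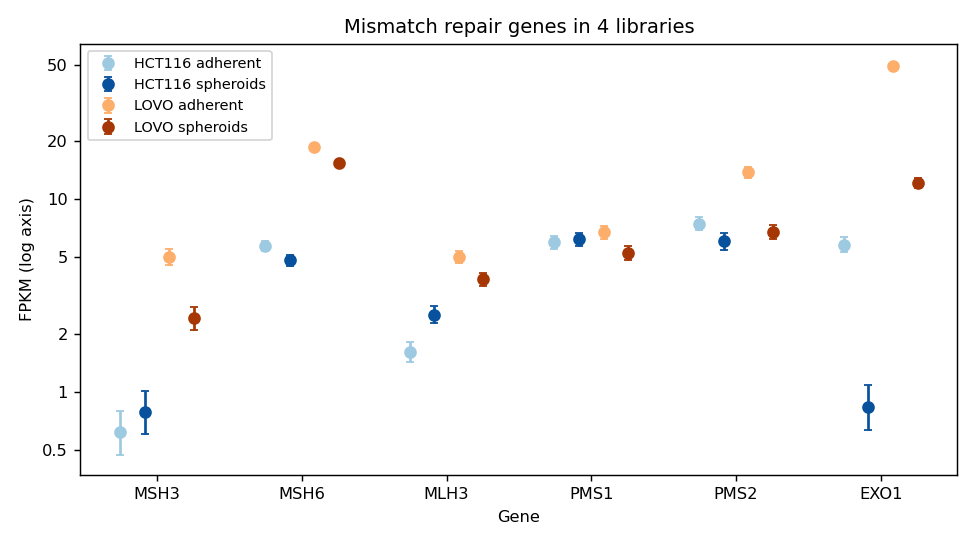
FPKM of the 6 genes on a log axis in each of the 4 libraries, with bars for the 95% exact counting interval. EXO1 runs from 0.834 in HCT116 spheroids to 49.1 in adherent LOVO cells, whereas PMS1 stays between 5.25 and 6.74.

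EXO1 showed the largest differences of the 6 genes, in each line and between the lines. Between the lines as adherent cells, its interval overlapped that of MSH3 (log2 ratio 3.03, interval 2.64 to 3.45). EXO1, the exonuclease that resects the nicked strand, lies at chr1:241847967-241895148 on the plus strand. Its FPKM was 5.81 in adherent and 0.834 in spheroid HCT116 cells, and 49.1 in adherent and 12.1 in spheroid LOVO cells, from 490, 58, 3646 and 1012 reads. Each spheroid library lay below the adherent library of its line, and both LOVO libraries lay above both HCT116 libraries. No exonic base of EXO1 is shared with a gene on the other strand, and 0 of its 50-base stretches occurred in transcripts of another gene. Spheroids were 6.96 times lower than adherent cells in HCT116 (log2 ratio -2.80, interval -3.22 to -2.41) and 4.04 times lower in LOVO (log2 ratio -2.02, interval -2.12 to -1.91). LOVO was 8.46 times HCT116 as adherent cells (log2 ratio 3.08, interval 2.94 to 3.22) and 14.6 times as spheroids (log2 ratio 3.86, interval 3.48 to 4.27).

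The order of the levels changed with these differences. In adherent HCT116 cells PMS2 was first, followed by PMS1, EXO1 and MSH6, whose neighbours in this order differed by less than counting error, and then by MLH3 and MSH3. In HCT116 spheroids PMS1 and PMS2 led without a difference beyond counting error, and EXO1 fell to a level that did not differ from MSH3 beyond it. In adherent LOVO cells EXO1 was first, ahead of MSH6, PMS2, PMS1 and then MLH3 and MSH3, which were both at 5.03. In LOVO spheroids MSH6 led EXO1, and the intervals of the neighbours in the order did not overlap. Among the 14429 genes, EXO1 stood at percentile 93.1 in adherent LOVO cells and at percentile 7.77 in HCT116 spheroids.

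The comparison of spheroids with adherent cells asks how the stem-like, drug-exposed cultures differ from the attached cells. A gene was counted as past the fold rule where log2(FPKM + 1) differed by at least 1, a scale that understates the change of low genes. In HCT116, 1 of the 6 members, EXO1, was past it, with a difference of -1.89, and 0 were past it upwards. Over all genes, 3.33% were lower and 2.19% higher by this rule in HCT116. In LOVO, EXO1 was again the only member past it, at -1.93, where 7.85% of all genes were lower and 8.57% higher. With FPKM rescaled to TPM, the number of all genes past the rule in LOVO was 2267 higher and 972 lower, in place of 1236 and 1133, and with a TMM-style scaling it was 1417 and 849. EXO1 was past the rule downwards under both. The change of EXO1 stood at percentile 0.638 of all genes in HCT116 and at percentile 1.06 in LOVO.

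All 6 members were below 0 in LOVO, with a median of -0.57 against -0.06 over all genes, of which 53.5% were below 0. In HCT116, 3 were below and 3 above 0, with a median of -0.08 against -0.03. PMS2 at -0.93 and MSH3 at -0.82 came closest to the rule in LOVO. A limma model of growth form and cell line over the 4 libraries, which leaves 1 residual degree of freedom and takes the lines as the replicates, called 0 genes (0% of those tested) at an adjusted p under 0.05. At an unadjusted p under 0.05, it gave 1545 genes, 10.7% of those tested, and 1 of the 6 members. That member was EXO1, with a mean difference of -1.91 (SE 0.24, limma adjusted p = 0.462). For PMS2 the mean difference was -0.60 (SE 0.28, limma adjusted p = 0.481), and for MSH6 it was -0.23 (SE 0.24, limma adjusted p = 0.688). MSH3 had -0.34 (SE 0.35), PMS1 -0.13 (SE 0.25) and MLH3 0.06 (SE 0.31), with limma adjusted p of 0.690, 0.842 and 0.950.

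**Figure D2:**
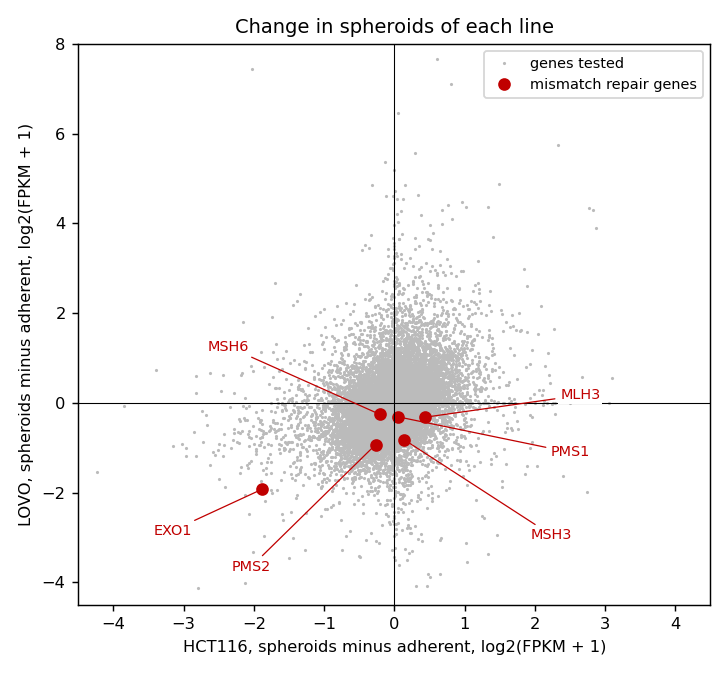
Difference of log2(FPKM + 1) between spheroids and adherent cells in HCT116 (horizontal axis) and in LOVO (vertical axis) for the genes tested (grey) and the 6 mismatch repair genes (red). EXO1, at -1.89 and -1.93, lies apart from the other 5, which all lie between -1 and 0.5 on both axes.

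The comparison of the lines sets these levels beside the different repair defects known for the lines named in the labels. The identity of the cells labelled LOVO was not tested. In adherent cells all 6 members were higher in LOVO, and 4 of them (EXO1, MSH3, MSH6 and MLH3) were past the fold rule, with differences of 2.88, 1.90, 1.55 and 1.21. Over all genes, 17.4% were higher and 16.4% lower by this rule, and the median of the members was 1.38 against 0.07. In spheroids, 5 of 6 were higher in LOVO and 2 (EXO1 at 2.84 and MSH6 at 1.51) were past the rule, beside 17.7% of all genes higher and 15% lower. MSH3 came to 0.93 there, and the median of the members was 0.70 against 0.04. MSH3 RNA was detected in HCT116, the line with the known MSH3 defect.

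The limma fit with growth form as a covariate called 3564 of 14429 genes between the lines, 24.7%, and 3 of the 6 members. EXO1 was higher in LOVO by 2.86 (SE 0.24, limma adjusted p = 0.00636), MSH6 by 1.53 (SE 0.24, limma adjusted p = 0.0175) and MSH3 by 1.42 (SE 0.35, limma adjusted p = 0.0469). Without growth form as a covariate the limma adjusted p of EXO1 was 0.0853 and that of MSH3 was 0.0523, and MSH3 also missed the threshold with a pseudocount of 0.1 or no filter. MLH3 differed by 0.83 (SE 0.31, limma adjusted p = 0.112), PMS2 by 0.48 (SE 0.28, limma adjusted p = 0.264) and PMS1 by -0.02 (SE 0.25, limma adjusted p = 0.951). The libraries of a line are 1 culture in each growth form, and the line, its passage and its library preparation cannot be told apart.

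**Figure D3:**
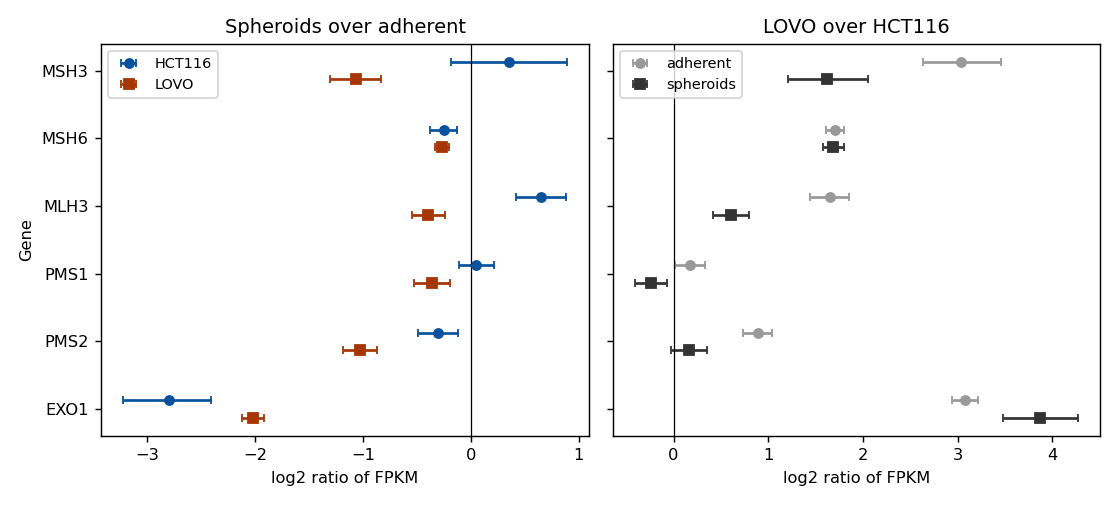
Log2 ratio of FPKM with 95% exact counting intervals, for spheroids over adherent cells in each line (left) and LOVO over HCT116 in each growth form (right). EXO1 has the ratios farthest from 0 in both panels, with an interval that overlaps that of MSH3 for adherent cells in the right panel. The points of MSH3, MLH3 and PMS1 lie on opposite sides of 0 in the 2 lines in the left panel, where the HCT116 intervals of MSH3 and PMS1 include 0.

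Downstream of the 6 members, mismatch repair uses the sliding clamp PCNA and its loader RFC, the single-strand binding protein RPA, DNA polymerase delta, DNA ligase 1 and HMGB1. All 16 genes listed for these steps, with SSBP1, the mitochondrial single-strand binding protein, among them, were tested. In HCT116 spheroids 16 of 16 were below 0 and 5 were past the fold rule downwards, with a median of -0.77, where 3.33% of all genes were past it downwards. HMGB1, a DNA-bending protein, differed by -1.02 and RFC3, a clamp loader subunit, by -1.47, while PCNA differed by -0.82. In LOVO spheroids 12 of 16 were below 0 and 2 were past the rule downwards, with a median of -0.53, where 7.85% of all genes were. These were HMGB1, at -1.08, and POLD2, a subunit of polymerase delta, at -1.33. POLD4, the smallest subunit of polymerase delta, was past it upwards at 1.27, from an FPKM of 0.841 to 3.46.

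Between the lines as adherent cells, 7 of the 16 downstream genes were past the rule in favour of LOVO and 2 in favour of HCT116, where 17.4% and 16.4% of all genes were. PCNA was at 242 in adherent LOVO cells and 101 in adherent HCT116 cells, a difference of 1.26. POLD3, a subunit of polymerase delta, was at 13.9 against 2.36 (difference 2.15). HMGB1 went the other way, at 20.8 against 60.0 (difference -1.48), as did POLD4, at 0.841 against 2.74 (difference -1.02). In spheroids 9 were past the rule in favour of LOVO and 1, HMGB1, in favour of HCT116, beside 17.7% and 15% of all genes.

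EXO1 was lower in the spheroids of each line, as were most listed genes of DNA replication and mitosis. In LOVO EXO1, at -1.93, was below the lowest S phase gene (-1.42) and the lowest G2/M gene (-1.56). In HCT116 EXO1, at -1.89, was above the lowest S phase gene (-2.43) and the lowest G2/M gene (-3.16). This scale understates the change of EXO1 there. As a log2 ratio without a pseudocount, EXO1 was at -2.80 in HCT116, and only RRM2 (-2.82) and CDC20 (-3.23) of these lists were lower. Of 14 S phase genes, 9 were past the fold rule downwards in HCT116 spheroids (median -1.31) and 2 in LOVO spheroids (median -0.77). Of 10 G2/M genes, 10 were past it downwards in HCT116 (median -1.91) and 3 in LOVO (median -0.95). Over all genes, 3.33% were past it downwards in HCT116 and 7.85% in LOVO, and the LOVO counts rest on few genes of each list. MCM2, a subunit of the replicative helicase, differed by -1.40 in HCT116 and -1.42 in LOVO, and the proliferation marker MKI67 by -2.07 and -0.97. Between adherent LOVO and HCT116 cells, 11 of the 14 S phase genes were past the rule in favour of LOVO (median 1.69), whereas of the G2/M genes 2 were in favour of LOVO and 1 in favour of HCT116 (median 0.36), beside 17.4% and 16.4% of all genes. A smaller share of cycling cells and less RNA per cell cannot be told apart in bulk libraries, and the part of these genes in the result for EXO1 was not tested.

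**Figure D4:**
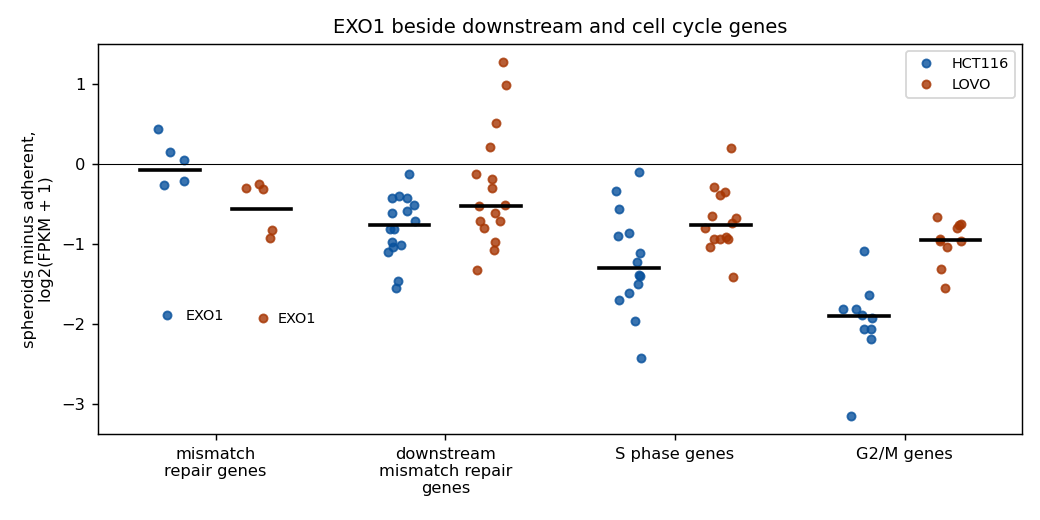
Difference of log2(FPKM + 1) between spheroids and adherent cells for the mismatch repair genes, the downstream genes, S phase genes and G2/M genes in HCT116 (blue) and LOVO (brown), with a bar at the median of each list. The points of EXO1, at -1.89 and -1.93, lie below the other mismatch repair genes. In LOVO EXO1 is below the medians of the 3 other lists. In HCT116 it is below the medians of the downstream genes (-0.77) and S phase genes (-1.31) and close to the G2/M median of -1.91.

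By Euclidean distance over the 4 libraries, after each gene's own mean of log2(FPKM + 1) was subtracted, the gene most like EXO1 was MCM2 (distance 0.55), at an FPKM of 14.0, 4.67, 92.8 and 34.1 in the 4 libraries. The pseudogene RPSAP15 (0.72) and DTL (0.81), which encodes a substrate receptor of the CUL4 ubiquitin ligase, followed. For MSH6 the most similar gene was DNASE2, a lysosomal nuclease (0.07), and for PMS2 it was CSTF2, a factor of mRNA 3′ end cleavage (0.04). ABHD4, a lipid hydrolase, was nearest to MSH3 (0.04) and the small RNA gene SNORA58 to MLH3 (0.06). Over only 4 libraries such a likeness is a description.

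Relatives of the members with other roles did not share a common pattern between spheroids and adherent cells. FEN1, the flap nuclease of the EXO1 family, differed by -1.37 between HCT116 spheroids and adherent cells, from an FPKM of 28.1 to 10.2, but by -0.09 in LOVO, from 84.5 to 79.5. GEN1, a Holliday junction resolvase of that family, differed by -0.69 and -0.44. MSH5, a meiotic MutS homolog, differed by 0.15 and 0.88. Its partner MSH4 did not pass the filter, with 22 and 71 reads in adherent HCT116 cells and HCT116 spheroids and 1 read in each LOVO library. ERCC5, the excision repair nuclease of the EXO1 family, did not pass it either. Between the lines, the 3 relatives tested were all higher in LOVO, with a median of 0.37 as adherent cells and 0.81 as spheroids. Of all genes, 53.0% and 51.6% were higher. FEN1 alone was past the fold rule, at 1.56 and 2.84.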

How the data were processed

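RNA was sequenced from HCT116 and LOVO cells, each grown adherent and as spheroids, in 4 libraries and with no replicate of a condition. The authors deposited FPKM values with gene lengths and coordinates. Aligner and counter are not given in the sources used here. The labels name GRCm38 and mm10, which are mouse builds, but GENCODE 29 on GRCh38 holds all 58735 gene identifiers. The study used edgeR, which needs counts and was not used here. Members, gene lists and tests were chosen with earlier results of these data known. The genes named were the members, lists of downstream, related, S phase, G2/M and marker genes, neighbours, PMS2 copies and the genes of most similar pattern. Further mismatch repair genes are not reported here.

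Genes below a mean FPKM of 1 were left out. Differences were taken on log2(FPKM + 1). Reads were recovered as FPKM times gene length over the step of each library (100% of values above 0 within 0.05 of a whole read) and served only for depth and for 95% exact intervals (Clopper-Pearson for ratios, Poisson for levels). Limma 3.58.1 in R 4.3.3 (eBayes with trend, Benjamini-Hochberg over all genes tested) was fitted to the 4 libraries. The same fit was run on simulated data, whose outcome is not reported here, and its power on these libraries is not known. Python 3.11.15 was used for the rest. Alternatives were another pseudocount, other filters, scalings, centring and thresholds, and limma without a trend or a covariate.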

Additional observations from a re-analysis of the deposited data

Results flagged for a closer look

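MSH3, MLH3 and PMS1 had differences of opposite sign in the spheroids of the 2 lines, and none of these differences was tested, since there was 1 library per condition. On the log2(FPKM + 1) scale, spheroids minus adherent cells came to 0.14 in HCT116 and -0.82 in LOVO for MSH3. They came to 0.43 and -0.32 for MLH3, the gene whose counting intervals excluded 0 in both lines. For PMS1 the values were 0.046 and -0.31. The HCT116 counting intervals of MSH3 and PMS1 included 0, so that no direction was resolved for them in that line. PMS1 also turned between growth forms, with LOVO minus HCT116 at 0.15 as adherent cells and -0.20 as spheroids, likewise without a test.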

How the results depend on the processing

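Pseudocount, filter, scaling and centring were varied. Of 136 differences of single members under these alternatives, 132 kept their sign and their side of the fold rule, 4 came past it and 0 changed sign. With a pseudocount of 0.1, 3 members in place of 1 were past the rule downwards in LOVO spheroids (MSH3 at -1.03, PMS2 at -1.01 and EXO1), where 1602 of all genes (11.1%) were in place of 1133 (7.85%), and MSH3 came past it between spheroids of the lines (1.50, and 1.52 with TPM). At a threshold of 2, 0 members were past it in HCT116 spheroids and 0 in LOVO spheroids, and 1 (EXO1) was past it between the lines as adherent cells and 1 as spheroids. With a mean FPKM of at least 5, which MSH3 and MLH3 do not reach, 8146 genes were tested. There 2 members were past the rule upwards between adherent cells, beside 19.5% of the genes tested in place of 17.4%. Limma then called 2 members and 1887 of 8146 genes between the lines, in place of 3564 of 14429 genes. Limma without growth form called 1 member in place of 3, MSH6, and 2645 of 14429 genes in place of 3564. With TPM the differences of MSH6, PMS1 and MLH3 between LOVO spheroids and adherent cells were -0.06, -0.15 and -0.18 in place of -0.25, -0.31 and -0.32, and the limma difference of PMS1 between the lines was 0.10 in place of -0.02. For spheroids limma called 0 genes under all 7 alternatives, the number at an unadjusted p under 0.05 ranging from 163 of 14429 to 2431 of 35734. The limma adjusted p of EXO1 ran from 0.363 to 1.00 there. Counts over all genes moved too. In HCT116 spheroids 316 were higher and 480 lower, against 764 and 760 with a pseudocount of 0.1 and 29 and 73 at a threshold of 2. For TPM 613 were higher. With no filter 520 of 35734 genes (1.46%) were higher and with an FPKM of at least 5 135 of 8146 (1.66%), in place of 2.19%. In LOVO spheroids 1236 were higher and 1133 lower, against 2074 higher with a pseudocount of 0.1 and 2267 for TPM, and 261 and 136 at a threshold of 2. With an FPKM of at least 5, 627 were higher (7.70% of those tested in place of 8.57%). Between adherent cells 2505 and 2369 became 759 and 807 at a threshold of 2, and between spheroids 2554 and 2162 became 819 and 679. With an FPKM of at least 5 they were 1590 and 1041 between adherent cells (19.5% and 12.8% of those tested). Between spheroids they were then 1507 and 969 (18.5% and 11.9%). TPM moved the median difference of all genes between spheroids of the lines from 0.04 to 0.26. The labels give no replicate numbers, and libraries were paired by cell line through the covariate of the limma model. No library could be left out of a comparison, since each group had 1. Depth limited MSH3 in HCT116 (59 and 62 reads) and EXO1 in HCT116 spheroids (58 reads).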
